A study of Rattus norvegicus with 16 samples.

Results

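The 7 genes described here encode neurotrophins, their receptors and a neurotrophin-induced peptide precursor: the ligands Bdnf and Ntf3, the receptors Ntrk2, Ntrk3 and Ngfr, the sorting receptor Sort1, and Vgf. They were taken by symbol, 1 row per symbol, from gene tables with 16405 symbols for the CA1 field of the hippocampus and 16395 for white blood cells (WBC), and all 7 had exactly 1 row in each table. The rats were male Sprague-Dawley animals of 200 to 240 g, which carried no genetic change that the labels name, and no age is given. They received a traumatic brain injury (TBI) by fluid percussion, a pressure pulse delivered to the brain, or sham surgery, were then tested for learning, and were killed 1 week after surgery. Poly-A RNA was sequenced in 4 groups of 4 libraries, CA1 TBI, CA1 sham, WBC TBI and WBC sham, 16 libraries in all. The labels number the samples but do not say whether each is 1 rat, so the p-values measure the spread between these samples only.

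Neurotrophins are secreted growth factors that are made as pro-proteins, cut to their mature form, and bound by tyrosine kinase receptors of the Trk family. BDNF binds TrkB, the product of Ntrk2, and NT-3 binds mainly TrkC, the product of Ntrk3. The p75 receptor, the product of Ngfr, binds all neurotrophins, and together with sortilin, the product of Sort1, it binds the uncut pro-forms. Sortilin also sorts BDNF within the cell. In the hippocampus BDNF is known for its part in synaptic plasticity and memory, and its transcription follows neuronal activity. Vgf encodes a neuropeptide precursor of the regulated secretory pathway and is known to be induced by BDNF.

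Promoters of the activity-dependent genes Bdnf and Vgf are shown because the cAMP response element (CRE), the site read by CREB, is the textbook link between neuronal activity and both genes. RefSeq promoters on build GRCr8 were found for 4 of the 7 genes (Bdnf with 6, Ntf3 with 3, Sort1 and Vgf with 1 each), and the 250 bases before each start were searched on both strands. The full CRE, TGACGTCA, is in 1.59% of all 33469 listed promoters. Among the neurotrophin genes it was found once, in Vgf, 90 bases before the start (chr12:25277021-25277270, minus strand). A variant with 1 other base, TCACGTCA, was searched as the form known from Bdnf, and no other such variant was searched. Its match in Bdnf was thus fixed by that choice and only gives its place. It is in 0.350% of promoters. Among these genes it was found once, in the fourth Bdnf promoter along the chromosome, 38 bases before the start (chr3:116637608-116637857, plus strand). The E-box CACGTG, which is in 5.59% of promoters and does not overlap the CRE, was found in Vgf alone among these genes. In the sequences, written 5′ to 3′ in the direction of the gene, capitals mark these CRE and E-box matches.

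Vgf promoter: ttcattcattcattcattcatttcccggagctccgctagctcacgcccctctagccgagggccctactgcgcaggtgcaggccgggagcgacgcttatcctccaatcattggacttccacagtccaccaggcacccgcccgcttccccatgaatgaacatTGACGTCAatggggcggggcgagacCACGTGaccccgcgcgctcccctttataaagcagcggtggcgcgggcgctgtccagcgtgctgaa

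Bdnf promoter: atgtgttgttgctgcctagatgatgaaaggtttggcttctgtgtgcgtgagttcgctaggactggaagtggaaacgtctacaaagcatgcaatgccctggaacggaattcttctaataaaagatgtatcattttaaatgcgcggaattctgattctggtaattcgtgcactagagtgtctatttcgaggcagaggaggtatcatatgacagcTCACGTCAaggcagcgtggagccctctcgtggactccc

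The deposited values are FPKM (fragments scaled by transcript length and by the size of the library), so levels can be set against each other between genes. The number of fragments behind them is unknown. Each tissue has its own table, normalized separately, so levels in the tissues are given side by side and not tested against each other. FPKM sums ran from 1726840 to 3520670 in CA1 and from 482286 to 832725 in WBC. Along the leading principal component, CA1 TBI 1 (-28.4) and sham 1 (-27.4) stood apart from the other 6 CA1 libraries (1.77 to 19.4), and in the blood table TBI 1 (57.0) stood apart from the other TBI libraries (4.36 to 19.1) and the sham libraries (-32.9 to -13.3). All 6 pyramidal neuron markers were present in CA1, with summed levels of 2377 to 2657 FPKM in TBI and 2293 to 3179 FPKM in sham, and 0 of the 6 were higher in TBI. T cell, monocyte and neutrophil markers were present in WBC and so were those of red cells and platelets. Summed choroid plexus markers varied most between CA1 libraries among the lists given here. They ran from 177 to 2723 FPKM in TBI and from 17.9 to 1300 FPKM in sham, highest in TBI 1 and lowest in sham 1. Their part in the CA1 values was not tested. In bulk tissue fewer cells of a type and less RNA per cell cannot be told apart.

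In CA1 the order of levels was Sort1, Ntrk2, Vgf, Ntrk3, Bdnf, Ntf3 and Ngfr. Sort1 averaged 119 FPKM over the 8 libraries and Ntrk2 109 FPKM, and these neighbours overlapped, Sort1 being the higher in 5 of the 8 libraries. Vgf followed at 56.2 FPKM and Ntrk3 at 27.8 FPKM, each with a range clear of its neighbours. The ligands came lower. Bdnf averaged 11.1 FPKM and Ntf3 8.51 FPKM, overlapping in range, with Bdnf the higher within 7 of 8 libraries. Ngfr was lowest at 0.327 FPKM. The spread over libraries, as a coefficient of variation, was 9.39% for Ntrk3, 9.82% for Ntrk2 and 12.3% for Sort1, against 19.7% for Bdnf, 26.4% for Ntf3 and 28.0% for Vgf.

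**Figure D1:**
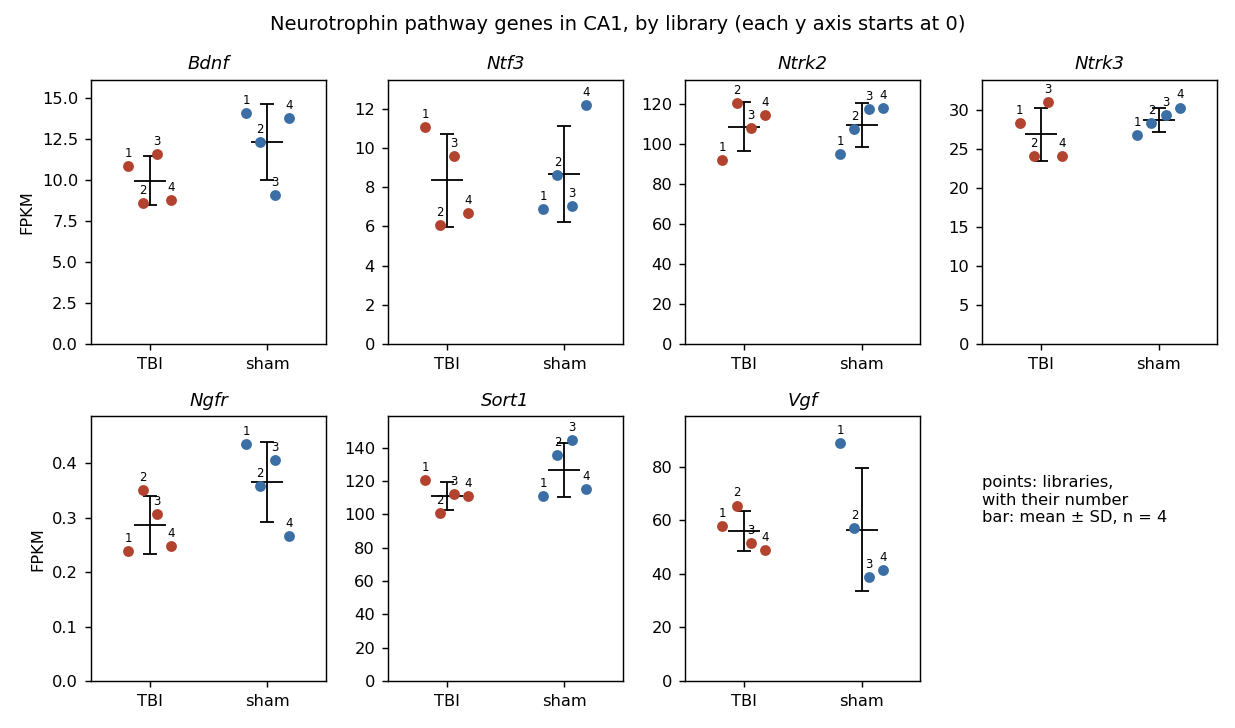
FPKM of the 7 genes in each CA1 library, TBI left and sham right, with the library number above each point and the mean ± SD (n = 4). The groups overlap in every panel. Bdnf lies at 8.61 to 11.6 FPKM in TBI and 9.05 to 14.0 FPKM in sham, and the widest sham range is that of Vgf, 38.8 to 88.7 FPKM.

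TBI against sham in CA1 asks whether the injured hippocampus differs in this system 1 week later. None of the 7 genes passed. Values were compared as log2(FPKM + 0.5) with limma over all 14637 rows that had a mean of at least 1 FPKM, which 6 of the 7 genes did and Ngfr did not. Of those 6, 0 had an adjusted p under 0.05, where 0.00683% of all rows did, and 0 had an unadjusted p under 0.05, where 5.14% of all rows did (2.54% higher and 2.6% lower). The groups did not overlap in 0 of the 6, against 2.88% of all rows (1.28% with TBI higher and 1.6% with TBI lower). An exact permutation test of each gene over the 8 libraries (2-sided, smallest possible p 0.0286) gave p = 0.114 to 0.886 for all 7. The median log2 difference of the 6 was -0.08, with 5 of them lower in TBI. Over all 14637 rows tested the median was -0.01, with 7807 lower in TBI and 6830 higher.

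Bdnf, the ligand of TrkB, was at 10.8, 8.61, 11.6 and 8.75 FPKM in CA1 TBI 1 to 4, against 14.0, 12.3, 9.05 and 13.8 FPKM in CA1 sham 1 to 4. TBI 2 and TBI 4 were below every sham library, and sham 3 was the only sham library within the TBI range. The means were 9.94 ± 1.48 FPKM in TBI and 12.3 ± 2.29 FPKM in sham (SD, n = 4 each). The log2 difference was -0.28 ± 0.15 (SE; unadjusted 95% interval -0.63 to 0.06; limma adjusted p = 0.891), and the exact permutation test gave p = 0.143. All 4 TBI libraries lay below the sham mean. Without sham 3 the groups did not overlap, which follows from its being the only sham library within the TBI range. The difference was then -0.42 ± 0.12 with an unadjusted limma p of 0.00835 and an adjusted p of 1.00. With any other single library left out it was -0.36 to -0.22 (unadjusted p = 0.0581 to 0.218), with array weights -0.13 (unadjusted p = 0.422), and without both libraries numbered 1 -0.26.

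Ntf3, which encodes NT-3, was at 11.1, 6.06, 9.61 and 6.67 FPKM in CA1 TBI 1 to 4, against 6.87, 8.62, 7.04 and 12.2 FPKM in CA1 sham 1 to 4. Each group held both low and high libraries, and the ranges coincided almost fully. The log2 difference was -0.06 ± 0.23 (limma adjusted p = 0.976; interval -0.58 to 0.47), and it was -0.29 without both libraries numbered 1. It turned to 0.11 without sham 4, 0.08 without TBI 2, 0.03 without TBI 4 and 0.01 with array weights. Markers of dentate granule cells, the principal cells of a neighbouring field, also differed between these libraries. Their summed level over 4 listed genes was 126, 78.0, 138 and 95.9 FPKM in TBI 1 to 4, against 137, 90.2, 92.1 and 174 FPKM in sham 1 to 4; 1 of the 4 was higher in TBI. Of the 3 libraries with the highest dentate sum, sham 4 and TBI 3 were among the 3 highest for Ntf3 and sham 1 was the third lowest, while TBI 2 was lowest in the dentate sum and in both ligands. The part of these cells in the ligand values was not tested.

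Ntrk2 and Ntrk3 had the lowest coefficients of variation of the 7 genes. Ntrk2 was at 92.2, 121, 108 and 115 FPKM in CA1 TBI 1 to 4, against 95.02, 108, 118 and 118 FPKM in CA1 sham 1 to 4. The lowest library of each group was number 1, the pair that stood apart from the other CA1 libraries. The log2 difference was -0.01 ± 0.10, with an interval of -0.24 to 0.22 (limma adjusted p = 0.991), and it was 0.066 without TBI 1, 0.024 without sham 3 and 0.027 without sham 4. The gene gives rise to a full-length receptor and to truncated forms without the kinase, which the gene-level values do not separate.

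Ntrk3 was at 28.3, 24.1, 31.0 and 24.0 FPKM in CA1 TBI 1 to 4, against 26.8, 28.3, 29.3 and 30.3 FPKM in CA1 sham 1 to 4. TBI 2 and TBI 4 were below every sham library and TBI 3 above every one, so the TBI range enclosed the sham range. The log2 difference was -0.10 ± 0.09 (limma adjusted p = 0.891; interval -0.30 to 0.10). It was -0.16 without both libraries numbered 1, -0.17 without TBI 3, -0.053 without TBI 2, -0.051 without TBI 4 and -0.066 with array weights. In the current RefSeq annotation 7 long noncoding RNA genes overlap Ntrk2 and 1 overlaps Ntrk3, and no source used here states that fragments were counted by strand.

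Ngfr, the p75 receptor gene, was at 0.240, 0.351, 0.308 and 0.248 FPKM in CA1 TBI 1 to 4, against 0.435, 0.358, 0.406 and 0.267 FPKM in CA1 sham 1 to 4. TBI 1 and TBI 4 were below every sham library, and sham 4 lay within the TBI range. It was under the filter in CA1. Fitted without the filter its log2 difference was -0.14 ± 0.08 (limma adjusted p = 0.895), a scale on which the added 0.5 FPKM understates a change of a gene this low.

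Sort1 was at 121, 100.4, 112 and 111 FPKM in CA1 TBI 1 to 4, against 111, 136, 145 and 115 FPKM in CA1 sham 1 to 4. The highest libraries, sham 2 and sham 3, were above every TBI library, while sham 1 and sham 4 lay among them. The means were 111 ± 8.34 FPKM in TBI and 126 ± 16.3 FPKM in sham (SD, n = 4 each), and the log2 difference was -0.18 ± 0.10 (limma adjusted p = 0.891; interval -0.41 to 0.04). Without both CA1 libraries numbered 1, the ones that stood apart, it was -0.28 (unadjusted p = 0.0249, limma adjusted p = 0.314), and without sham 3 it was -0.11 (unadjusted p = 0.263, limma adjusted p = 1.00). With array weights it was -0.26 (unadjusted p = 0.0157, limma adjusted p = 0.320). Without sham 1 alone it was -0.24 (unadjusted p = 0.0367, limma adjusted p = 0.381). The pyramidal neuron markers, with 0 of 6 higher in TBI, were lower in the same comparison. Their sum was lowest in sham 1 (2293 FPKM), which was highest in Bdnf (14.0 FPKM) and lowest of the sham libraries in Sort1. Of endothelial and pericyte markers 0 of 6 were higher in TBI, of astrocyte markers 1 of 6 and of GABAergic interneuron markers 3 of 6. The part of any of these cells in the Bdnf and Sort1 values was not tested.

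Vgf was at 58.0, 65.5, 51.4 and 48.9 FPKM in CA1 TBI 1 to 4, against 88.7, 57.0, 38.8 and 41.5 FPKM in CA1 sham 1 to 4. All 4 TBI libraries lay inside the sham range, which sham 1 stretched upward. The SD was 7.42 FPKM in TBI and 22.9 FPKM in sham around means of 55.9 FPKM in TBI and 56.5 FPKM in sham. The log2 difference was 0.06 ± 0.24 (limma adjusted p = 0.979; interval -0.50 to 0.61). It became -0.02 without TBI 2, -0.10 without sham 3 and -0.06 without sham 4, and 0.30 without sham 1. Without both libraries numbered 1 it was 0.28.

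**Figure D2:**
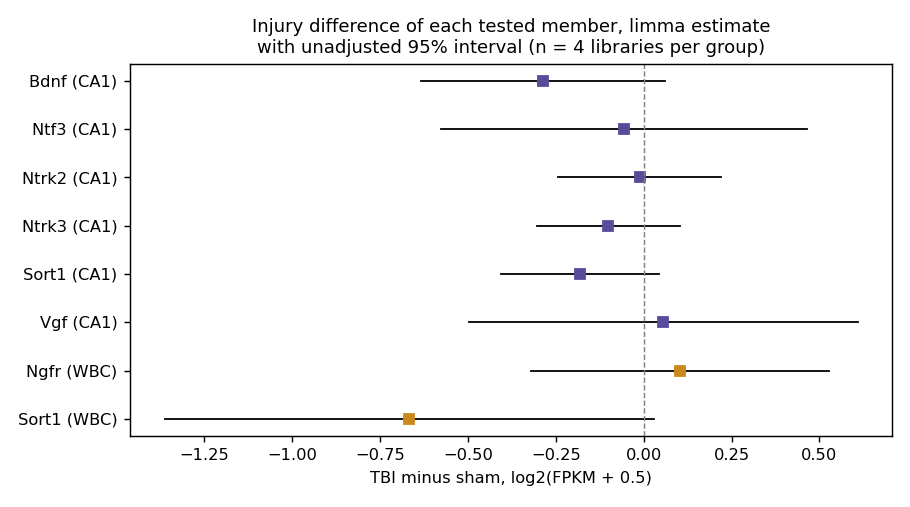
TBI minus sham on the log2(FPKM + 0.5) scale for each gene that passed the filter, with the limma estimate as a square and its unadjusted 95% interval as a line (n = 4 libraries per group), CA1 in violet above and WBC in ochre below. Every interval crosses 0; the one of Bdnf in CA1 ends at 0.06 and the one of Sort1 in WBC at 0.03.

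Across the 8 CA1 libraries Bdnf was set against the 5 other genes tested there, and none of the 5 correlations passed an exact permutation test; Ngfr was not among them. Pearson's r on the log2 scale was 0.58 with Ntf3 (Spearman's rho 0.55), 0.56 with Ntrk3 (0.45), -0.46 with Ntrk2 (-0.45), 0.29 with Vgf (0.14) and 0.03 with Sort1 (0.14). Over these 5 pairs the exact permutation p was 0.136 to 0.941 for r (Benjamini-Hochberg adjusted 0.390 to 0.941) and 0.171 to 0.752 for rho (adjusted 0.446 to 0.752). Without TBI 2 and TBI 4, the libraries farthest from the Bdnf median, r was 0.23 with Ntf3, -0.23 with Ntrk3, -0.20 with Ntrk2, 0.54 with Vgf and -0.71 with Sort1 (exact permutation p = 0.119 to 0.704). The r with Ntrk3 was thus not positive over the 6 libraries left. With the group means subtracted, r was 0.64 with Ntf3, 0.44 with Ntrk3, -0.58 with Ntrk2, 0.40 with Vgf and -0.42 with Sort1.

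Of 10254 symbols tested in CA1, those with the library pattern most like that of Bdnf were Pdgfd, a platelet-derived growth factor (r = 0.94), the linker histone gene H1f0 (0.92), Nrn1, which encodes neuritin (0.92), Mpped2 (0.92) and Zfp498 (0.92). Ntf3 came at place 655 and Vgf at place 2481 in that order. Most like Vgf were the ubiquitin-conjugating enzyme gene Ube2d2 (0.96), LOC683077 (0.96), the proteasome activator gene Psme4 (0.95), Mllt4 (0.95) and Cfl2, an actin-severing cofilin (0.94), while Bdnf was at place 2668. These r are over 8 libraries of 1 table in 2 groups and are the highest of many, so they describe these libraries only. All 10 genes had a limma adjusted p between 0.891 and 1.00 for TBI against sham.

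None of the relatives reported here passed in CA1 either. The ligand gene Ntf4 stayed between 0.0679 and 0.184 FPKM in all 8 libraries. Of the sortilin relatives, Sorl1 averaged 44.6 ± 4.85 FPKM in TBI and 49.4 ± 2.65 FPKM in sham (log2 -0.15 ± 0.08, limma adjusted p = 0.891). Sorcs1 averaged 5.15 FPKM in TBI and 5.29 FPKM in sham, and Sorcs3 8.56 FPKM in TBI and 9.39 FPKM in sham. Sorcs2, which has 2 rows, averaged 8.88 FPKM in TBI and 9.58 FPKM in sham in the higher row. Nradd, which encodes a p75 relative, lay under the filter at 0.931 to 1.29 FPKM in TBI and 0.699 to 0.984 FPKM in sham, with 3 TBI libraries above every sham library (exact permutation p = 0.0571).

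The wider pathway was followed in 8 gene lists, the rest of the family among them. None of the listed genes passed in CA1. Their counts by direction stand beside 6830 rows higher and 7807 lower of all 14637 tested in CA1. Of 8 tested genes that process or sort pro-neurotrophins, 2 were higher and 6 lower in TBI (median -0.07). Hap1, the huntingtin-associated protein that takes part in pro-BDNF transport, averaged 39.7 ± 8.19 FPKM in TBI and 28.3 ± 1.63 FPKM in sham (log2 0.47 ± 0.13, limma adjusted p = 0.891), without overlap. Plat, the tissue plasminogen activator, which starts the plasmin cascade that can cut pro-BDNF, averaged 12.8 ± 1.23 FPKM in TBI and 15.6 ± 1.56 FPKM in sham (-0.27, same adjusted p). Of 36 Trk signalling genes 14 were higher and 22 lower (median -0.04), with Map2k5, the kinase upstream of ERK5, at 21.5 FPKM in TBI and 18.3 FPKM in sham (0.22) and Akt2, a survival kinase, at 15.4 FPKM in TBI and 19.6 FPKM in sham (-0.34, limma adjusted p = 0.710). Of 25 p75 signalling genes 9 were higher and 16 lower (median -0.03). Bex1 stood at 83.6 FPKM in TBI and 76.2 FPKM in sham, and Adam17, a sheddase that cuts p75, at 4.02 FPKM in TBI and 4.81 FPKM in sham.

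Neither the regulators of Bdnf nor the genes that respond to activity held a gene that passed in CA1. Of 17 regulators of Bdnf, 12 were lower in TBI (median -0.11), with the activity factor Npas4 at 2.30 ± 1.501 FPKM in TBI and 1.502 ± 0.508 FPKM in sham, and Mef2d at 45.3 FPKM in TBI and 49.7 FPKM in sham. Of 21 activity-regulated and BDNF-responsive genes 14 were lower (median -0.11), and 6 of them were lower at an unadjusted limma p under 0.05, where 2.6% of all rows were. These were Dusp6, a phosphatase of ERK, at 18.5 ± 1.21 FPKM in TBI and 23.1 ± 1.88 FPKM in sham (-0.31, limma adjusted p = 0.891), Homer1 (-0.21), Egr3 (-0.24), Nptx2 (-0.24), Dusp5 (-0.26) and Inhba (-0.33). The count was 3 without TBI 3 or TBI 4, 4 without sham 3 and 2 without sham 4, and 5 to 7 without any 1 of the others. Without sham 1 it was 6 while the share over all rows was 7.99%. Higher in TBI beside these genes were 0 of 6 pyramidal neuron, 0 of 6 endothelial and pericyte, 1 of 6 astrocyte and 3 of 6 GABAergic interneuron markers. The part of these cells in the count was not tested. Arc stood at 34.0 FPKM in TBI and 35.0 FPKM in sham and Egr1 at 41.0 FPKM in TBI and 40.6 FPKM in sham. Highest in the other direction by p was the clock gene Per1, at 10.7 FPKM in TBI and 9.53 FPKM in sham (0.16). The 5 genes other than Dusp6 in this count, with Arc and Egr1, were named after their values were seen. The list itself was chosen with earlier results of these data known, so its count beside the share over all rows is a description only.

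No gene for a protein that travels with Vgf or with sortilin passed in CA1. Of 11 granin and dense-core vesicle genes 9 were lower in CA1 TBI (median -0.04), with the convertase Pcsk2 at 83.7 ± 2.53 FPKM in TBI and 99.2 ± 18.8 FPKM in sham and Ptprn2 at 54.9 FPKM in TBI and 52.6 FPKM in sham. Of 13 sortilin ligands and sorting partners 8 were lower (median -0.02), with the retromer subunit Vps26a at 26.1 FPKM in TBI and 30.1 FPKM in sham and the adaptor Gga2 at 7.84 FPKM in TBI and 7.53 FPKM in sham.

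**Figure D3:**
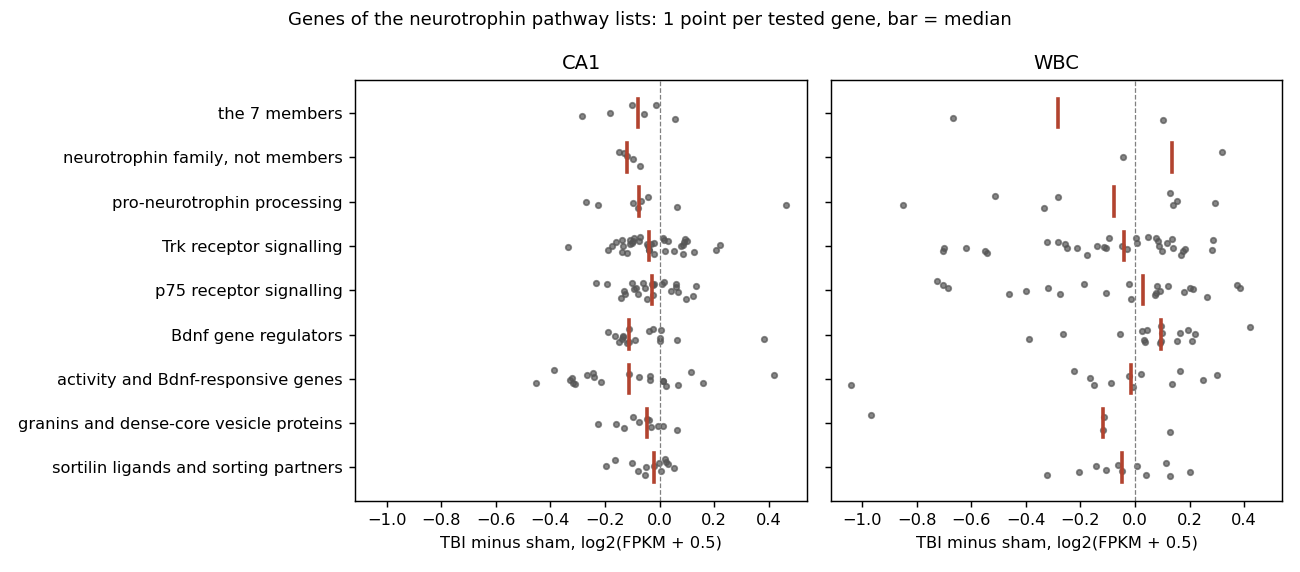
TBI minus sham on the log2(FPKM + 0.5) scale for each tested gene of the 7 described here and of 8 pathway lists, CA1 left and WBC right, with the median of each list as a red bar. CA1 medians lie between -0.12 and -0.02. The lowest point is at -0.45 in CA1 and -1.04 in WBC, and the highest at 0.47 in CA1 and 0.42 in WBC.

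In WBC 5 of the 7 genes were at very low levels. Bdnf was between 0.0199 and 0.148 FPKM in the 8 libraries, Ntrk2 between 0.0237 and 0.239 FPKM and Vgf between 0.0229 and 0.371 FPKM. Ntrk3 was listed at 0 in 3 libraries and reached at most 0.0842 FPKM, and Ntf3 was listed at 0 in 7 libraries. These ranges overlapped each other, so no order can be read among these 5 genes. The exceptions were Sort1, at a mean of 20.0 FPKM, and Ngfr, at 1.89 FPKM, each clear of the next gene in the order, and only these passed the filter. Ngfr was thus the one gene of the 7 whose FPKM was larger in the WBC table, at 1.43 to 2.42 FPKM beside 0.240 to 0.435 FPKM in CA1, a side-by-side reading of tables normalized separately.

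**Figure D4:**
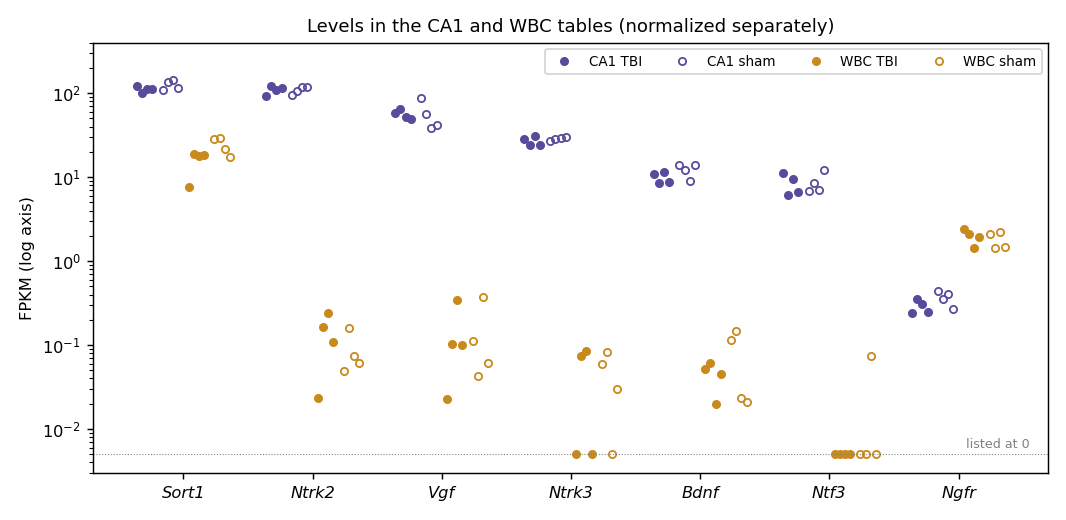
FPKM on a log axis of the 7 genes in the CA1 and WBC tables, 4 libraries per group, filled points for TBI and open points for sham; values listed at 0 are drawn at the dotted line. CA1 points lie above WBC points for every gene except Ngfr, and Sort1 in WBC runs from 7.55 to 29.4 FPKM.

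TBI against sham in WBC asks whether blood cells differ after the same injury. Neither tested gene passed in limma: 0 of 2 had an adjusted p under 0.05, as did 0% of 13413 rows, and 0 of 2 an unadjusted p under 0.05, against 20.3% of all rows. The groups overlapped in both, where they did not in 14.2% of rows (5.61% with TBI higher and 8.63% with TBI lower). Ngfr was at 2.42, 2.13, 1.43 and 1.92 FPKM in WBC TBI 1 to 4, against 2.08, 1.43, 2.24 and 1.47 FPKM in WBC sham 1 to 4. Both groups spanned nearly the same range, with a log2 difference of 0.10 ± 0.18 (limma adjusted p = 0.801; interval -0.32 to 0.53). Leaving out 1 library gave 0.018 (without TBI 1) to 0.22 (without TBI 3), and array weights 0.016. It was also 0.025 without sham 2, 0.035 without sham 4, 0.19 without sham 3 and 0.16 without sham 1.

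Sort1 was at 7.55, 19.1, 17.9 and 18.2 FPKM in WBC TBI 1 to 4, against 28.5, 29.4, 21.5 and 17.6 FPKM in WBC sham 1 to 4. TBI 1 was far below every other library, and TBI 2 to 4 lay below 3 of the sham libraries but above sham 4. The means were 15.7 ± 5.46 FPKM in TBI and 24.2 ± 5.67 FPKM in sham (SD, n = 4 each). The log2 difference was -0.67 ± 0.30 (limma adjusted p = 0.262; interval -1.36 to 0.03; exact permutation p = 0.114). Without TBI 1 it was -0.36 ± 0.18 (limma adjusted p = 0.364). In the same libraries the summed level of 4 platelet markers was 1808, 4009, 5265 and 4488 FPKM in TBI 1 to 4, against 6462, 7747, 5637 and 6122 FPKM in sham 1 to 4, with 0 of the 4 higher in TBI. That of 5 erythroid markers was 4206 to 10207 FPKM in TBI and 9848 to 15940 FPKM in sham, again with none higher in TBI, and that of 5 monocyte markers was 689 to 1059 FPKM in TBI and 706 to 1082 FPKM in sham. TBI 1 was lowest in these 3 sums as in Sort1, and also in the T cell and neutrophil sums. In natural killer cell markers, with 5 of 5 higher in TBI, it was highest, at 355 FPKM against 166 to 266 FPKM in the other 7 libraries, and in B cell markers it was at 701 FPKM, within the range of the others. The part of these cells in the Sort1 values was not tested.

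**Figure D5:**
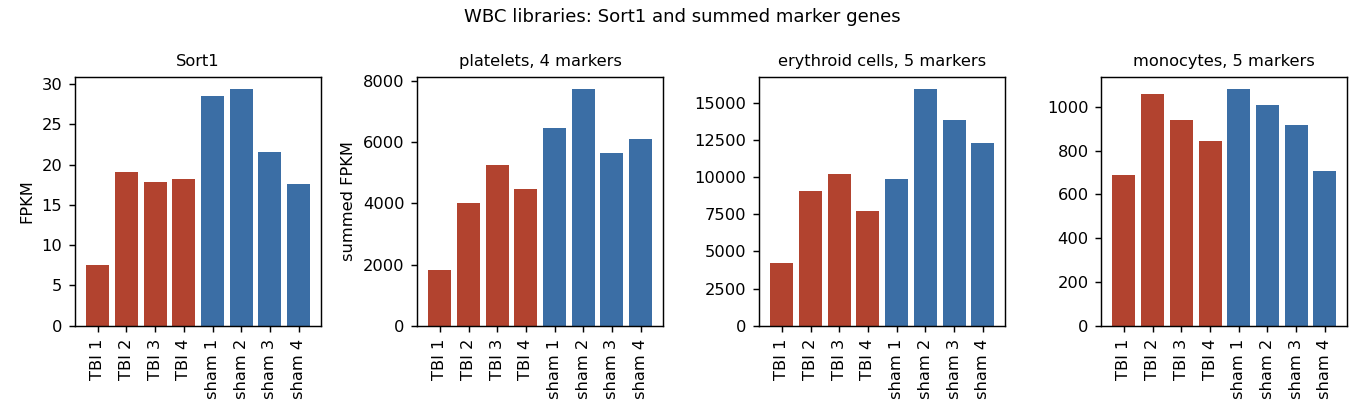
Sort1 (FPKM) and the summed FPKM of 4 platelet, 5 erythroid and 5 monocyte marker genes in each WBC library, TBI bars left in red and sham bars right in blue, each axis starting at 0. TBI 1 is the lowest bar in every panel, at 7.55 FPKM for Sort1.

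Sort1 was the only one of the 7 genes tested in both tissues. Its injury difference in WBC minus that in CA1 was -0.49 ± 0.33 on the log2 scale (limma interaction term over 7570 symbols, adjusted p = 0.450), where 0.41% of symbols passed. It was -0.18 without WBC TBI 1. The fit took the 16 libraries as independent, and the labels do not say whether equal numbers in CA1 and WBC are 1 rat. With the sample number as a block the difference was -0.49 ± 0.34 (limma adjusted p = 0.433).

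Around these genes WBC pathway lists gave no gene that passed (limma adjusted p of at least 0.127), although unadjusted p under 0.05 was frequent, as over all rows (7.82% higher and 12.5% lower). Of all such WBC rows 38.5% were higher in TBI, and 56.5% were after quantile normalization, which moved the median of all WBC rows to 0.05. The p75 relative Nradd was at 21.2 ± 3.31 FPKM in WBC TBI and 16.9 ± 2.56 FPKM in WBC sham (log2 0.32 ± 0.14, limma adjusted p = 0.240), with 2 TBI libraries above every sham library. Sorl1 was at 25.8 FPKM in TBI and 26.6 FPKM in sham. Of 8 processing genes 4 were higher and 4 lower. Furin, a convertase that cuts pro-neurotrophins, averaged 65.7 ± 8.50 FPKM in TBI and 118 ± 4.93 FPKM in sham (-0.85 ± 0.10, limma adjusted p = 0.127), and Pcsk7, a related convertase, 10.4 FPKM in TBI and 9.26 FPKM in sham (0.15).

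Of 32 Trk signalling genes in WBC 15 were higher and 17 lower, 2 and 8 of them at an unadjusted limma p under 0.05. Over all WBC rows 7.82% were higher and 12.5% lower at that threshold. Without TBI 2 the 8 became 5, where 12.0% of all rows were lower. Akt2 averaged 87.7 ± 14.5 FPKM in TBI and 127 ± 11.5 FPKM in sham (-0.54, limma adjusted p = 0.132), and the exchange factor gene Sos1 8.78 FPKM in TBI and 7.11 FPKM in sham (0.28). Of 22 p75 signalling genes 11 were higher and 11 lower, 2 and 5 of them at an unadjusted limma p under 0.05. The kinase gene Irak1 was at 54.0 FPKM in TBI and 87.7 FPKM in sham (-0.71). Prdm4, which encodes a zinc finger protein that binds p75, was at 9.39 FPKM in TBI and 7.15 FPKM in sham (0.37). Of 17 Bdnf regulators 14 were higher and 3 lower (median 0.09), beside 6647 higher and 6766 lower of all 13413 WBC rows. The 3 lower became 7 without sham 2, 6 without TBI 1 and 5 without TBI 2, and were 3 or 4 without any 1 of the others. The CREB coactivator Crtc1 was at 6.38 ± 0.573 FPKM in TBI and 4.64 ± 0.419 FPKM in sham (0.42, limma adjusted p = 0.127). The deacetylase Hdac5 was at 32.2 FPKM in TBI and 38.7 FPKM in sham (-0.27).

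Activity-regulated genes in WBC split into 5 higher and 7 lower of 12, with the neuropeptide gene Npy at 74.0 ± 47.6 FPKM in TBI and 125 ± 14.5 FPKM in sham (-1.04, limma adjusted p = 0.273) and Per1 at 14.0 FPKM in TBI and 11.6 FPKM in sham (0.25). Of 4 dense-core vesicle genes 3 were lower, led by the amidating enzyme gene Pam at 19.9 ± 7.43 FPKM in TBI and 39.0 ± 12.8 FPKM in sham (-0.97, limma adjusted p = 0.157), and Cpe was at 3.66 FPKM in TBI and 2.86 FPKM in sham. Of 11 sortilin ligands and partners 5 were higher and 6 lower, with the adaptors Gga1 at 27.0 FPKM in TBI and 23.4 FPKM in sham (0.20) and Gga2 at 86.1 FPKM in TBI and 107 FPKM in sham (-0.32).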

How the data were processed

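RNA-seq libraries from poly-A RNA of CA1 and WBC were aligned and quantified by the authors. The deposited values are FPKM per gene and library, with a quantification status beside each, and per the submitters' processing notes the tools were TopHat, TopHat2, Bowtie, Bowtie2, Cufflinks and Cuffdiff on build rn5. For tool versions, annotation and the library-size setting, the sources used here say nothing. Columns named for fluid percussion injury were matched to the TBI titles. FPKM gives no fragment counts; the spacing of the smallest values put the depth at 0.853 to 0.993 of that of sham 1 in 6 CA1 libraries and at 0.801 to 1.38 in 5 WBC libraries, where that spacing was clear.

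The 7 genes and all lists were chosen with earlier results of these data known. Rows with a mean of at least 1 FPKM over the tissue's 8 libraries and status OK in each (14637 in CA1, 13413 in WBC) were tested as log2(FPKM + 0.5), TBI minus sham, with limma 3.58.1 (trend, 2-sided, Benjamini-Hochberg over all rows, threshold 0.05). The fit was tested on simulated data first. These had independent normal noise and 50 rows changed at each log2 size of 0.3, 0.5, 1 and 2. In CA1 the fit recovered 14% of log2 changes of 0.3, 36% of 0.5 and 78% of 1, and in WBC 4%, 12% and 58%. It also called 7 unchanged rows in CA1 and 2 in WBC. So many changed rows ease the adjusted threshold, whereas in the real data 1 CA1 row and 0 WBC rows passed. Recovery of a single changed gene there may therefore be lower. A gene that did not pass may thus still differ by log2 changes of 0.3, 0.5 or 1. Single genes were also put to an exact permutation test over 70 splits. Named genes are the 7, others of the family, the smallest p per direction of each list and tissue, and the 5 genes most correlated with Bdnf and with Vgf; Arc, Egr1, Homer1, Egr3, Nptx2, Dusp5 and Inhba were added after their values were seen. Some relatives of the family are not reported here. Alternatives were pseudocounts of 0.1 and 1, other filters, scalings and limma settings, the sample number as a block, rows of every status, an adjusted p of 0.1 and leaving out libraries. Promoters came from RefSeq (GRCr8). limma and the permutations over 70 splits ran in R 4.3.3. Under Python 3.11.15, permutations of the correlations used numpy 2.4.6, their ranks and adjustment scipy 1.17.1, tables pandas 2.3.3, and plots matplotlib 3.10.9.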

Additional observations from a re-analysis of the deposited data

Results flagged for a closer look

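In groups of 4, a library was marked when its gap to the nearest other library was above Dixon's 95% critical share of the group's range, which chance does in about 1 of 20 groups. Among 27 groups of the 7 genes 2 libraries were marked. Sort1 in WBC TBI 1, at 7.55 FPKM, was far below the other 3 TBI libraries, at 17.9 to 19.1 FPKM. Ntf3 in WBC sham 3, at 0.0735 FPKM, was the one library of its group not listed at 0. Its gap was therefore the whole range, so any value above 0 would have been marked, and the chance rate does not hold there.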

How the results depend on the processing

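None of the 7 genes was called in either tissue under any alternative run, and the direction of Bdnf, Ntrk3 and Sort1 in CA1 and of Ngfr and Sort1 in WBC was the same under all of them. Leaving out 1 library at a time, the log2 difference of Bdnf in CA1 ran from -0.42 to -0.22, and array weights gave -0.13. The ranges were -0.24 to -0.11 for Sort1 and -0.17 to -0.051 for Ntrk3 in CA1, and 0.018 to 0.22 for Ngfr and -0.81 to -0.36 for Sort1 in WBC. Ntf3 in CA1 reversed with array weights (0.0087). Over leaving out 1 library it ran from -0.20 to 0.11 (0.075 without TBI 2, 0.032 without TBI 4), Ntrk2 in CA1 from -0.078 to 0.066 (0.024 without sham 3, 0.027 without sham 4) and Vgf in CA1 from -0.10 to 0.30 (-0.023 without TBI 2, -0.065 without sham 4). The r of Bdnf turned to -0.23 with Ntrk3 and to -0.71 with Sort1 without the 2 farthest libraries, and to -0.42 with Sort1 once group means were subtracted. Of all CA1 rows 1 was called, 2 after quantile normalization or without both libraries numbered 1, 3 at an adjusted p of 0.1, without the trend or with array weights, and 1 to 2 when 1 library was left out. Of all WBC rows 0 were called, 1 at an adjusted p of 0.1, 2 with rows of every status and 0 to 4 when 1 library was left out. For the difference between tissues 31 symbols were called, and 0 to 329 under the alternatives. The cause of these shifts was not tested.

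Whether equal sample numbers pair the libraries is not settled here, and the labels do not say what equal numbers share. Deviations from the group means correlated at 0.02 to 0.24 within same-numbered CA1 pairs, beside -0.16 to 0.11 in the other CA1 pairs. Highest in CA1 were the pairs numbered 4 (0.24) and 1 (0.21), while TBI 3 correlated best with sham 4 (0.07) and TBI 2 with sham 3 (0.11). In WBC the same-numbered pairs were at -0.01 to 0.15 and the others at -0.13 to 0.10. With the replicate block the counts of called rows stayed 1 in CA1 and 0 in WBC, and Bdnf in CA1 was -0.28 (limma adjusted p = 0.755). Without known depth, values under 1 FPKM, such as Bdnf in WBC, show neither presence nor absence of the transcript.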

Other observations

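The balance of genes within a library, computed after the values were seen, gave a further description of CA1. The FPKM of Ntrk2 over that of Ntrk3 was 3.26, 4.996, 3.49 and 4.77 in TBI 1 to 4, against 3.54, 3.80, 4.01 and 3.905 in sham 1 to 4. The TBI libraries thus lay on both sides of the sham range, TBI 2 and TBI 4 above it and TBI 1 and TBI 3 below it. The FPKM of Bdnf over that of Ntf3 was 0.978, 1.42, 1.20 and 1.31 in TBI 1 to 4, against 2.04, 1.43, 1.29 and 1.13 in sham 1 to 4, so that Ntf3 exceeded Bdnf in TBI 1 alone.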
